A study of Mus musculus with 4 samples.

Results

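Liver makes most of the apolipoproteins of blood plasma, and 10 apolipoprotein genes are described here, namely Apoa1, Apoa2, Apoa4, Apoa5, Apob, Apoc1, Apoc2, Apoc3, Apoe and Apoh. They were chosen by name and found by matching Ensembl identifiers to mouse gene symbols. They are 10 of 48709 genes in the count tables, and all 10 passed the filter on low counts, which kept 13699 genes for testing. Poly(A)-selected, stranded libraries were made from the livers of untreated adult C57BL/6 mice, 2 libraries labelled WT and 2 labelled DDI2-KO. The DDI2-KO mice carried floxed alleles of Ddi2 together with Cre recombinase under the albumin promoter, which directs the deletion to hepatocytes. Whether other cells of the liver keep the gene was not tested here. WT mice were littermates with floxed alleles and no Cre. The study states that the replicates are biological. The comparison asks which liver transcripts differ when the aspartic protease DDI2 is deleted.

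Apolipoproteins coat the lipoprotein particles that carry lipid through the blood. APOB is the scaffold of very low density lipoprotein, which carries triglyceride out of the liver, while APOA1 and APOA2 build high density lipoprotein, which returns cholesterol. The smaller exchangeable members move between particles and set how fast lipoprotein lipase digests them and how readily the liver takes up the remnants.

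Depth was 34109018 and 31532247 reads on genes for WT, against 25582344 and 22501208 for DDI2-KO. For Ddi2, the gene targeted, the count was 4749 and 3812 in WT against 4068 and 3777 in the DDI2-KO-labelled pair. In CPM, which are counts per 1000000 reads of the library size after TMM scaling, these were 141 and 123 for WT and 157 and 164 for DDI2-KO. Ddi2 was thus not lower in either DDI2-KO-labelled library than in WT (log2 fold change 0.28 with a standard error, SE, of 0.17; adjusted p = 0.349 by edgeR). A count over the whole gene may miss the loss of part of it, and counts by exon were not analysed here, so these values do not check the labels. Its count is also uncertain, since 17.9% of the 50-base stretches of its longest transcript occur in other genes, mainly Rsc1a1. Every direction given here therefore rests on the labels, and groups are named as labelled. The study reports lower Mt1 and Mt2 expression in DDI2-KO livers, by sequencing under these labels and by PCR.

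Together the 10 genes took 3.40% and 3.35% of gene reads in WT and 3.48% and 2.87% in the DDI2-KO-labelled libraries. The groups overlapped, as DDI2-KO-labelled library 1 was the highest of the 4 and library 2 the lowest. The mean share was 3.38% ± 0.0374 (SD, n = 2) in WT and 3.17% ± 0.433 (SD, n = 2) in DDI2-KO, a difference of -0.203 percentage points that lay within the spread of the DDI2-KO-labelled pair. No p is given for a sum over chosen genes, and with 4 libraries an exact permutation test cannot go below 0.333. Counting error was small beside this spread, because the 95% Wilson interval of the sum reached at most 0.0071 percentage points from any library's value.

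Apoe and Apoa1 accounted for most of the lower sum in DDI2-KO-labelled library 2. Between them they took 1.58% and 1.802% of gene reads in WT and 1.60% and 1.08% in DDI2-KO. Shares of the other 8 genes added to 1.82% and 1.55% in WT and to 1.87% and 1.78% in DDI2-KO, closer within DDI2-KO than within WT. Leaving out DDI2-KO-labelled library 2 turned the difference for all 10 genes to 0.103 percentage points, and leaving out library 1 made it -0.509.

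**Figure D1:**
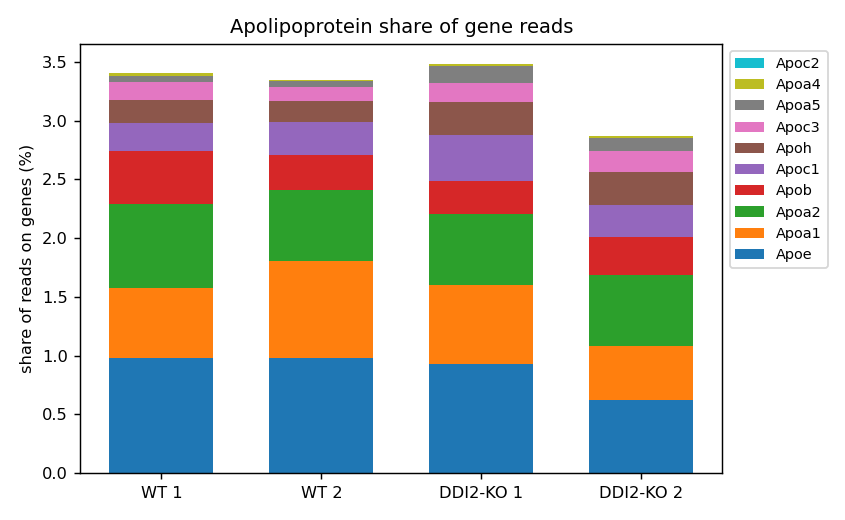
Stacked bars give the share of gene reads, in percent, that each of the 10 apolipoprotein genes took in each library, with the most abundant at the bottom. Totals are 3.40% and 3.35% for WT and 3.48% and 2.87% for DDI2-KO, and the Apoe and Apoa1 segments are shortest in DDI2-KO-labelled library 2.

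These shares depend on what else is counted. Genes of the mitochondrial genome took 10.5% and 9.91% of gene reads in WT but 5.27% and 6.34% in DDI2-KO, with no overlap. Measured against the reads on all other genes, the apolipoprotein share was 3.80% and 3.72% in WT and 3.67% and 3.06% in DDI2-KO, so on that denominator the groups did not overlap. Alb took 13.2% and 15.1% in WT and 12.4% and 13.1% in DDI2-KO. What part these genes have in the single apolipoprotein shares was not tested.

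Apoe had the most reads of the 10 in each library, ranking 11 and 9 among all genes in WT and 7 and 18 in DDI2-KO. Levels of different genes can be compared only per length, and for this the counts were turned into transcripts per 1000000 (TPM) with the exon length of each gene. This length joins all annotated exons and exceeds the longest transcript unequally. It was 2138 against 1408 bases for Apoe and 1236 against 1035 for Apoa1. For Apoc3 it was 1014 against 709 bases and for Apoh 1594 against 1190, so close orders can depend on the length used. In TPM, Apoa2 was highest in WT at 28953 ± 3267 (SD, n = 2), followed by Apoa1 at 13707 ± 3015 and Apoe at 10789.6 ± 2.18. Below them, Apoc1 was at 8244 ± 908 TPM, Apoc3 at 3103 ± 606, Apoh at 2751 ± 148, Apob at 647 ± 182, Apoa5 at 526 ± 33.8 and Apoa4 at 185 ± 128. Apoc3 and Apoh overlapped between the WT libraries, as did Apob and Apoa5, and these neighbours in the order do not differ beyond their spread. The order of Apoa1 and Apoe in WT is not settled either, because it depends on the length used. In DDI2-KO, Apoa5 stood above Apob in TPM, at 1267 ± 203 against 532 ± 60.5 (SD, n = 2), without overlap. Apoh was above Apoc3 in DDI2-KO, at 4398 ± 96.4 against 4113 ± 165, without overlap on this length, but their order depends on the length used. Apoc1 was above Apoe in each DDI2-KO-labelled library, at 13271 and 9152 TPM against 10781 and 7233 TPM, although the ranges overlapped. Apoc2 is left out of this order because its count is uncertain, as described with the C apolipoproteins.

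Of the 10 genes, 1 passed an adjusted p of 0.05 in edgeR's quasi-likelihood test (Benjamini-Hochberg adjustment over all genes tested), namely Apoa5, which rose. By the same test 346 of 13699 genes were called (2.53%), 182 higher (1.33%) and 164 lower (1.2%) in DDI2-KO. Upper-quartile factors in place of TMM gave 126 higher and 191 lower calls, so that 39.7% of calls were higher instead of 52.6%, and library totals alone gave 230 higher and 148 lower (60.8% higher). The median log2 fold change of the apolipoprotein genes was -0.07, beside -0.01 for all genes tested, and 5 of the 10 were positive. In 6 of the 10 the groups did not overlap, 3 higher and 3 lower in DDI2-KO, and the same held for 55.7% of all genes tested. An unadjusted p under 0.05 was found by edgeR for 3216 genes, or 23.5% of those tested.

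**Figure D2:**
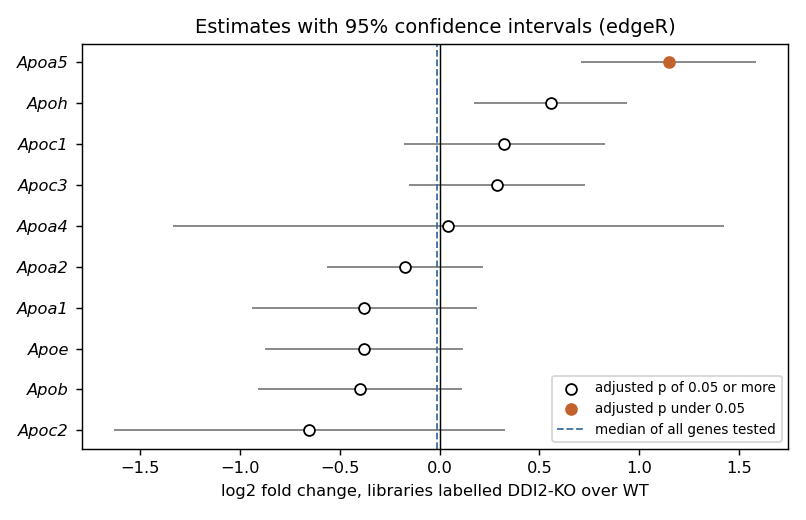
Points give the log2 fold change of each apolipoprotein gene, DDI2-KO over WT, and bars its 95% confidence interval from edgeR (2 libraries per group); the filled point has an adjusted p under 0.05 and the dashed line is the median over all genes tested. Intervals lie above 0 for Apoa5, from 0.71 to 1.59, and for Apoh, from 0.17 to 0.94, and include 0 for the other 8.

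APOA5 is secreted by the liver and promotes the digestion of triglyceride-rich particles by lipoprotein lipase. Its gene (ENSMUSG00000032079) lies on the plus strand of chromosome 9 of GRCm38, from 46268633 to 46271919. Its promoter window is shown because Apoa5 is the member that was called, beside those of Apoa1 and Apoa4, which lie in the same gene cluster and were not called. Each window runs 5′ to 3′ on the plus strand from 250 bases before to 50 bases after a RefSeq start (RefSeq, GRCm38.p6), at chr9:46268383-46268682 for Apoa5, chr9:46228380-46228679 for Apoa1 and chr9:46240594-46240893 for Apoa4. Both strands were searched for the TATA box by the letters TATAAA, for the E box by CACGTG, for the nuclear receptor half-site by AGGTCA and for the core of the antioxidant response element by TGACNNNGC, and capitals mark the matches.
Apoa5: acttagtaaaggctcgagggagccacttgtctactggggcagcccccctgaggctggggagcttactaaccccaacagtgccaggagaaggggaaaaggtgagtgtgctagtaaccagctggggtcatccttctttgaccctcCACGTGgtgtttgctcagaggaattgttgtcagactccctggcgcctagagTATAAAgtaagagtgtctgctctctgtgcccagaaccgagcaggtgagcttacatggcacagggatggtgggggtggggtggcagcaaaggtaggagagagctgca
Apoa1: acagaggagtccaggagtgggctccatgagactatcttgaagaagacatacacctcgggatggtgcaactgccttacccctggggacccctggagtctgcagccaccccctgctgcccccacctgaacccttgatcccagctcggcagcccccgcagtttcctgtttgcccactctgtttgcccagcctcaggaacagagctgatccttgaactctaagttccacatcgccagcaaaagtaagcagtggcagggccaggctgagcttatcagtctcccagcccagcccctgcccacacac
Apoa4: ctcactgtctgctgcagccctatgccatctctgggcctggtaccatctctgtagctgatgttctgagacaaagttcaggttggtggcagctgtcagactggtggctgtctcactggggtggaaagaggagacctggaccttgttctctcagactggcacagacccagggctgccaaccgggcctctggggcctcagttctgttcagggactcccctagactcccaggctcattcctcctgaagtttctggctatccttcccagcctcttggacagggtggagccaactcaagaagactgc
In the Apoa5 window TATAAA began at -56 and CACGTG at -107 relative to that start, and relative to the other RefSeq start of Apoa5 they were at -31 and -82. None of the searched letters was in the Apoa1 or Apoa4 windows. Of 32851 promoter windows of this length, 13.6% held TATAAA, 7.15% CACGTG, 16.3% AGGTCA and 12.4% TGACNNNGC. RefSeq windows were matched for 8 of the 10 members, all but Apoc1 and Apoc3. TATAAA was also found for Apob at -60, for Apoa2 at -212 and for an alternative start of Apoe, while AGGTCA was found for Apoc2, Apoh and an alternative start of Apoa2. A match describes the letters of a window and does not show a bound factor.

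Apoa5 was at 543 and 598 CPM in WT and at 1412 and 1117 CPM in the DDI2-KO-labelled libraries. Both of the latter were above both WT values, and the gap between groups was wider than the spread within either. This gave a log2 fold change of 1.15 (SE 0.19, adjusted p = 0.0338 by edgeR), or 2.22-fold with a 95% interval of 1.63 to 3.01. Its share of gene reads was 0.0561% ± 0.00360 (SD, n = 2) in WT and 0.129% ± 0.0204 (SD, n = 2) in DDI2-KO. Among apolipoprotein reads alone it made up 1.57% and 1.75% in WT and 4.11% and 3.98% in DDI2-KO. The call was lost without WT library 1 (log2 fold change 1.08, adjusted p = 0.0869 by edgeR) and without DDI2-KO-labelled library 1 (0.97, adjusted p = 0.0567 by edgeR), while over 11 other settings the adjusted p ran from 3.25e-06 with DESeq2 to 0.0460 with edgeR. Gm47544 covers 20.8% of its exonic bases on the opposite strand and is not among the genes in the count tables. Since the strand setting of the counting is not given in the sources used here, reads from Gm47544 and Apoa5 cannot be told apart there.

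Genes with the profile nearest to that of Apoa5 were Chchd2, Prdx3 and Uqcrfs1. Their Euclidean distances from Apoa5 in centred log2 CPM over the 4 libraries were 0.105, 0.142 and 0.152, out of 1186 genes averaging 100 CPM or more. Chchd2 was at 64.0 and 67.6 CPM in WT and at 159.9 and 138 CPM in DDI2-KO (log2 fold change 1.18, adjusted p = 0.0209 by edgeR, or 0.0814 without WT library 1). Of its 50-base stretches 18.5% occur in other genes, mainly Zbed5, and its count is uncertain. Prdx3 had a log2 fold change of 1.06 (edgeR adjusted p = 0.0383) that was not called without robust estimation (0.0520), WT library 1 (0.122) or WT library 2 (0.0940). For Uqcrfs1 it was 1.04 (adjusted p = 0.0338 by edgeR), not called without WT library 1 (0.137) or WT library 2 (0.0630). A distance over 4 libraries is a description with no test, and fold changes near that of Apoa5 follow from how these genes were chosen.

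APOC3 slows lipoprotein lipase and remnant uptake, and APOA4 travels on chylomicrons and high density lipoprotein. Apoa1, Apoc3, Apoa4 and Apoa5 lie in that order on chromosome 9 within 43.3 kb. From start to start, Apoc3 is 7.06 kb from Apoa1, Apoa4 is 5.06 kb from Apoc3 and Apoa5 is 27.9 kb from Apoa4. Apoc3 (ENSMUSG00000032081) was at 1535 and 1169.6 CPM in WT and at 1609.7 and 1692 CPM in DDI2-KO. Both DDI2-KO-labelled values were higher, but WT library 1 lay close to them. The log2 fold change of Apoc3 was 0.29 (SE 0.19, adjusted p = 0.403 by edgeR), with a 95% interval of -0.15 to 0.73. It was 0.50 without WT library 1 and 0.10 without WT library 2.

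Apoa4 (ENSMUSG00000032080) was at 214 and 74.1 CPM in WT and at 163 and 135 CPM in DDI2-KO. The DDI2-KO-labelled values lay between the WT values, which differed 2.89-fold, the widest ratio within WT among the 10 genes. Its log2 fold change of 0.04 (SE 0.52, adjusted p = 0.971 by edgeR) had a 95% interval of -1.34 to 1.42, so a 2-fold difference either way was not detectable. No direction can be given, because the value was 1.01 without WT library 1, -0.53 without WT library 2, -0.10 without DDI2-KO-labelled library 1 and -0.0072 with upper-quartile factors. Antisense genes cover 69.8% of its exonic bases, and of these Gm10680 had 0 reads in 3 libraries and 2 reads in DDI2-KO-labelled library 2. The other, Gm47528, is not among the genes in the count tables.

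Neighbours of the cluster were chosen by position. Zpr1, 44.5 kb from the start of Apoa1, had a log2 fold change of 0.38 (edgeR adjusted p = 0.235). For Bud13, at 54.4 kb, it was -0.22 (adjusted p = 0.563 by edgeR), and for Sik3, on the other side of Apoa1, it was -0.16 (adjusted p = 0.576 by edgeR). Whether the fold change of Apoa5 differs from those of its neighbours was not tested.

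**Figure D3:**
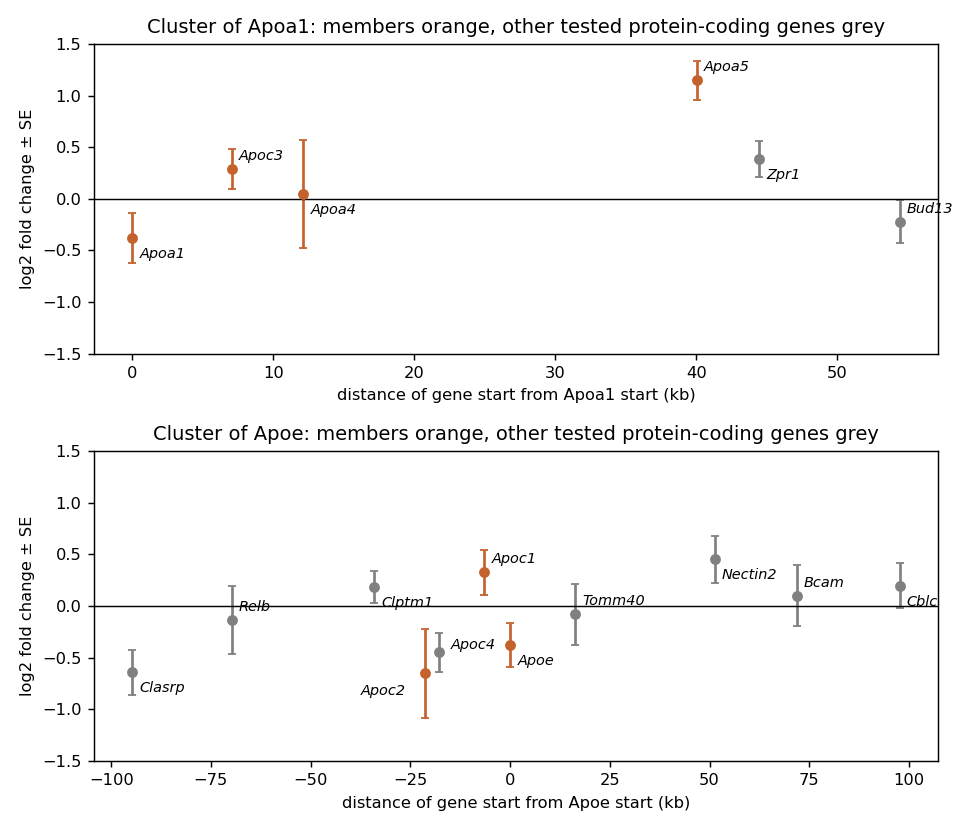
Log2 fold change with its standard error, DDI2-KO over WT, against the distance of each gene's start in kb from the start of Apoa1 (top) or Apoe (bottom), for tested protein-coding genes that start within 100 kb, members in orange. In the top panel Apoa5 stands at 1.15, and in the bottom panel values lie between -0.65 for Apoc2 and 0.45 for Nectin2, none with an adjusted p under 0.05.

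APOB is the structural protein of very low and low density lipoprotein. Apob (ENSMUSG00000020609, chromosome 12 of GRCm38, 7977648 to 8016835) has the longest transcript of the 10, at 13934 bases. It was at 4634 and 3115 CPM in WT and at 2710.3 and 3161 CPM in DDI2-KO. WT library 1 was the highest, and WT library 2 fell between the DDI2-KO-labelled values, so the groups overlapped. The log2 fold change of Apob was -0.40 (SE 0.22, adjusted p = 0.316 by edgeR). It was -0.08 without WT library 1 and -0.66 without WT library 2, and -0.12 with offsets for GC content and transcript length, a setting chosen after seeing the data.

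APOA1 is the main protein of high density lipoprotein and activates the enzyme that esterifies its cholesterol. Apoa1 (ENSMUSG00000032083, chromosome 9, 46228580 to 46230466) was at 6133 and 8442 CPM in WT and at 6704 and 4517 CPM in DDI2-KO. The highest value was WT and the lowest DDI2-KO, but DDI2-KO-labelled library 1 lay between the WT values. Its share of gene reads was 0.716% ± 0.157 (SD, n = 2) in WT and 0.570% ± 0.153 (SD, n = 2) in DDI2-KO. The estimated log2 fold change was -0.38 (SE 0.24, adjusted p = 0.388 by edgeR), with a 95% interval of -0.94 to 0.18. Leaving out WT library 1 gave -0.59, WT library 2 -0.13, DDI2-KO-labelled library 1 -0.69 and library 2 -0.11.

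APOA2 is the other main protein of high density lipoprotein. Apoa2 (ENSMUSG00000005681, chromosome 1, 171225054 to 171226379) was at 7197 and 6169.8 CPM in WT and at 5971 and 5864 CPM in DDI2-KO. Both DDI2-KO-labelled values were below WT library 2, by less than the WT values differed from each other. A log2 fold change of -0.18 (SE 0.17, adjusted p = 0.580 by edgeR) resulted, and its 95% interval of -0.57 to 0.22 did not reach a 2-fold difference in either direction. Without WT library 1 the value was -0.058, and without WT library 2 it was -0.28.

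APOE binds receptors of the low density lipoprotein receptor family and clears remnants, and is made by macrophages as well as hepatocytes. Apoe (ENSMUSG00000002985, chromosome 7, 19696109 to 19699188) was at 9888 and 9949 CPM in WT and at 9156 and 6099 CPM in DDI2-KO. The WT values were nearly equal, DDI2-KO-labelled library 1 was slightly below them and library 2 far below. Its share of gene reads was 0.975% ± 0.000126 (SD, n = 2) in WT and 0.775% ± 0.215 (SD, n = 2) in DDI2-KO. Apoe had a log2 fold change of -0.38 (SE 0.22, adjusted p = 0.326 by edgeR), which was -0.11 without DDI2-KO-labelled library 2 and -0.70 without library 1.

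APOC1 slows the uptake of remnants, and APOC2 is the activator that lipoprotein lipase needs. Apoe, Apoc1, Apoc4 and Apoc2 follow each other on the minus strand of chromosome 7 within 27.6 kb. Apoc1 (ENSMUSG00000040564) was at 2425 and 2851 CPM in WT and at 3922 and 2685 CPM in DDI2-KO. DDI2-KO-labelled library 1 was the highest, while library 2 lay between the WT values, so the groups overlapped. Apoc1 had a log2 fold change of 0.32 (SE 0.22, adjusted p = 0.411 by edgeR), which was 0.03 without DDI2-KO-labelled library 1, 0.58 without library 2 and 0.21 without WT library 1.

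Apoc2 (ENSMUSG00000002992) was counted 32 and 42 times in WT against 23 and 13 times in DDI2-KO, far fewer than any other of the 10. Of its 813 exonic bases 646 are shared on the same strand with Gm44805, an annotated transcript that joins Apoc4 and Apoc2, and 88.2% of its 50-base stretches occur in Gm44805. Gm44805 had 0 reads in each library. The counting program set reads that were ambiguous between genes aside, outside the gene counts. Whether reads on these shared bases were among them was not tested, so the count of Apoc2 is uncertain and no level is given for it. The fitted log2 fold change was -0.65 (SE 0.43, adjusted p = 0.391 by edgeR). The median of the members was positive without Apoc2, at 0.043, with limma-voom, at 0.031, with limma-trend, at 0.030, and with a mean of 1 CPM as the filter, which drops Apoc2, at 0.024. It was also positive without WT library 1, at 0.078, and without DDI2-KO-labelled library 2, at 0.038, so no direction can be given for it.

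APOH, or beta-2-glycoprotein I, binds anionic phospholipids and circulates mostly outside lipoproteins. Apoh (ENSMUSG00000000049, chromosome 11, 108343354 to 108414396) was at 1952 and 1819 CPM in WT and at 2742 and 2808 CPM in DDI2-KO. Both DDI2-KO-labelled values were above both WT values, and values within each group were close. Its share of gene reads was 0.185% ± 0.00999 (SD, n = 2) in WT and 0.282% ± 0.00661 (SD, n = 2) in DDI2-KO. The log2 fold change of 0.56 (SE 0.17, adjusted p = 0.103 by edgeR) did not pass the threshold. It passed with DESeq2 (adjusted p = 0.0355), and in the 10 other settings with all libraries and no replicate block its adjusted p, by edgeR or limma, lay between 0.0627 and 0.175. Of its 1594 exonic bases 30 overlap Prkca on the opposite strand.

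**Figure D4:**
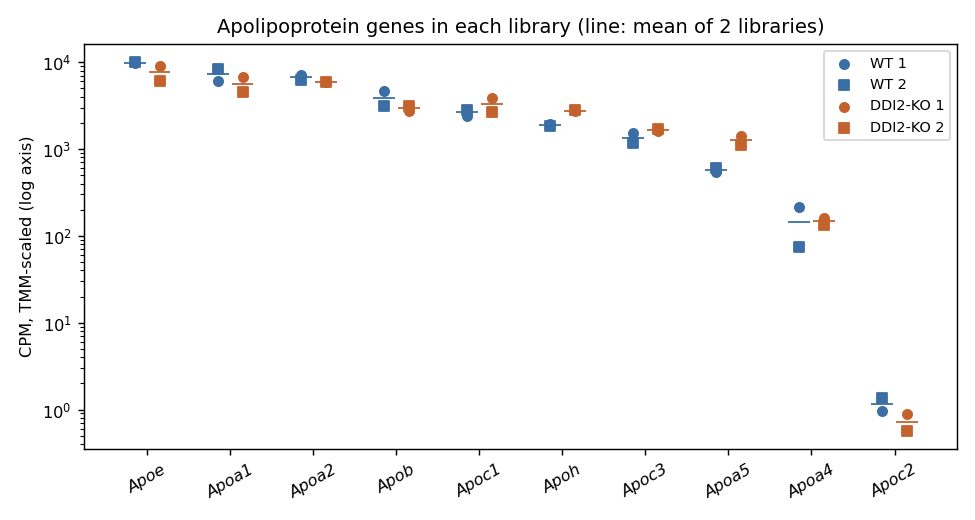
CPM of each apolipoprotein gene on a log axis, with circles for replicate 1, squares for replicate 2 and a line at the mean of the 2 libraries. Apoa5 and Apoh lie higher in both DDI2-KO-labelled libraries, Apoa4 spreads most within WT, and Apoc2, whose count is uncertain, lies far below the others.

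The DDI2-KO-labelled libraries differed from each other more in some members than in others. The log2 ratio of library 2 to library 1 was -0.59 for Apoe, -0.57 for Apoa1 and -0.55 for Apoc1, against 0.03 for Apoh, 0.07 for Apoc3 and 0.22 for Apob. GC content was 59.5% for Apoe, 56.8% for Apoa1 and 54.9% for Apoc1, against 48.5% for Apoh, 56.0% for Apoc3 and 43.6% for Apob. Across the 9 members other than Apoc2 the Spearman correlation of this ratio with GC content was -0.750, and across 13675 tested genes it was -0.481. For the ratio of WT library 2 to WT library 1 the correlations were 0.217 and 0.0683, and for the difference of DDI2-KO from WT they were -0.0833 and 0.0489. Genes share the same libraries and are not independent replicates, and median GC content was 56.0% for the 9 members and 49.4% for all genes. With the offsets for GC content and length, Apoa5 had a log2 fold change of 1.13 (edgeR adjusted p = 0.0145) and Apoe one of -0.26 (adjusted p = 0.343 by edgeR). Apoa1 was at -0.37 with and -0.38 without these offsets, and Apoh at 0.39 with and 0.56 without.

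The mean centred log2 CPM of the 10 members was 0.05 and -0.10 in WT and 0.16 and -0.10 in DDI2-KO. Without Apoc2, whose count is uncertain, it was 0.04 and -0.18 in WT and 0.18 and -0.05 in DDI2-KO. Either way it was highest in DDI2-KO-labelled library 1, and the groups overlapped. Pbld2, Plg and Mpeg1 had the profiles nearest to the mean with Apoc2 among 1178 genes averaging 100 CPM or more, at Euclidean distances of 0.0231, 0.0367 and 0.0628 over the 4 libraries. Their log2 fold changes were 0.08, 0.04 and 0.02, with adjusted p of 0.825, 0.909 and 0.956 by edgeR. Small values such as these follow from choosing genes by that profile. The count of Pbld2 is uncertain, as 13.4% of its 50-base stretches occur in other genes, mainly Pbld1.

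Genes that act with the apolipoproteins were taken from 6 lists of 81 genes, of which 79 were tested and Apod and Lrp8 had too few reads. By edgeR 4 of the 79 were called (5.06%, against 2.53% of all genes tested), 3 higher and 1 lower in DDI2-KO. Of the 79, 38 were positive and 41 negative, with a median log2 fold change of -0.04, beside -0.01 for all genes tested. Leaving out 1 library at a time gave 1 call (lower) without WT library 1 and 1 (lower) without WT library 2. It gave 5 calls without DDI2-KO-labelled library 1, 2 higher and 3 lower, and 9 without DDI2-KO-labelled library 2, 6 higher and 3 lower.

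Vldlr encodes a receptor that binds APOE-rich particles. It was at 11.6 and 10.9 CPM in WT and at 20.7 and 27.7 CPM in DDI2-KO, higher in both DDI2-KO-labelled libraries. Vldlr rose with a log2 fold change of 1.10 (SE 0.20, adjusted p = 0.0404 by edgeR). Its adjusted p was 0.124 without WT library 1, 0.119 without WT library 2 and 0.0529 without robust estimation, all by edgeR.

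Stab2 encodes a scavenger receptor of sinusoidal endothelial cells. It was at 73.7 and 61.2 CPM in WT and at 32.9 and 29.9 CPM in DDI2-KO, lower in both DDI2-KO-labelled libraries. Stab2 fell with a log2 fold change of -1.10 (SE 0.17, adjusted p = 0.0288 by edgeR, or 0.109 without WT library 1). In bulk liver, fewer cells of a type and less RNA per cell cannot be told apart. Of 7 endothelial markers, edgeR called 0, DESeq2 0 and limma 0, and the median was 0.04. Lyve1, named after its values were seen as the 1 marker of these at an unadjusted p under 0.05 in edgeR (23.5% of all genes tested), was at 22.2 and 38.9 CPM in WT and at 19.6 and 18.8 CPM in DDI2-KO, lower in both DDI2-KO-labelled libraries (log2 fold change -0.67, adjusted p = 0.177 by edgeR). Clec4g, the most abundant of them, was at 115 and 86.9 CPM in WT and at 118 CPM in both DDI2-KO-labelled libraries (log2 fold change 0.22, adjusted p = 0.511 by edgeR). On the opposite strand, 141 exonic bases of Stab2 overlap Gm16268 and 146 of Clec4g overlap Gm16553, so both counts are uncertain there.

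Of the 13 receptor and uptake genes tested, edgeR called 2, Vldlr and Stab2, against 2.53% of all genes tested. In edgeR 4 of the 13 had an unadjusted p under 0.05, against 23.5% of all genes tested. Log2 fold changes were positive for 3 and negative for 10, and the median was -0.11. Lrp1, a remnant receptor, had a log2 fold change of -0.51 (edgeR adjusted p = 0.260). For Sdc1, a heparan sulfate proteoglycan that binds remnants, it was -0.35 (adjusted p = 0.348 by edgeR).

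Pparg encodes a nuclear receptor for fatty acids that drives lipid storage. It was at 9.67 and 12.2 CPM in WT and at 21.8 and 22.8 CPM in DDI2-KO, higher in both DDI2-KO-labelled libraries. Pparg rose with a log2 fold change of 1.03 (SE 0.19, adjusted p = 0.0404 by edgeR). Without WT library 1 its adjusted p was 0.196, without WT library 2 it was 0.0623 and without robust estimation 0.0529, all by edgeR. Pparg was the only gene called by edgeR of 25 regulators of apolipoprotein genes, against 2.53% of all genes tested. Of the 25, 10 were positive and 15 negative, with a median of -0.19. DESeq2 called 5 of the 25, against 932 of 13699 genes tested. With limma 1 was called, against 305 (limma-voom) or 318 (limma-trend) of all genes tested. In edgeR 8 of the 25 had an unadjusted p under 0.05, against 23.5% of all genes tested. Hnf4a, a nuclear receptor that binds apolipoprotein promoters, was at 469 and 600.1 CPM in WT and at 616 and 634 CPM in DDI2-KO (log2 fold change 0.23, adjusted p = 0.514 by edgeR). Rxra, the partner of many nuclear receptors, had a log2 fold change of 0.04 (edgeR adjusted p = 0.937).

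Npc2 encodes a carrier of cholesterol in lysosomes. It was at 83.1 and 85.4 CPM in WT and at 165 and 137 CPM in DDI2-KO, higher in both DDI2-KO-labelled libraries. Npc2 rose with a log2 fold change of 0.84 (SE 0.17, adjusted p = 0.0472 by edgeR). The call was lost without WT library 1 (0.206), WT library 2 (0.152) or DDI2-KO-labelled library 1 (0.0689), with upper-quartile factors (0.0556), with a mean of 1 CPM as the filter (0.0521) and without robust estimation (0.0612). Npc2 was the only gene called by edgeR of 7 for cholesterol efflux (against 2.53% of all genes tested), whose median was -0.14. Abca1, which loads cholesterol onto APOA1, had a log2 fold change of -0.35 (edgeR adjusted p = 0.406), and Abcb4, which moves phospholipid into bile, one of 0.21 (adjusted p = 0.620 by edgeR). Of the 50-base stretches of Abcb4 3.42% occur in other genes, mainly Abcb1a.

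In the other 3 lists edgeR called 0 genes. Of 16 genes of lipoprotein assembly and secretion 11 were positive, with a median of 0.17, 4 at an unadjusted p under 0.05 (against 23.5% of all genes tested) and 0 called by DESeq2 or limma. Mttp, which loads lipid onto APOB, was at 308 and 273 CPM in WT and at 378 and 383 CPM in DDI2-KO, higher in both DDI2-KO-labelled libraries. Its log2 fold change was 0.39 (adjusted p = 0.218 by edgeR), and that of P4hb, its partner subunit, was 0.12 (adjusted p = 0.718 by edgeR). Trmt10a and Gm43691 overlap 589 exonic bases of Mttp on the opposite strand, which leaves its count uncertain there.

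Of 13 plasma lipases and transfer proteins 9 were positive, with a median of 0.23. In edgeR 4 of the 13 had an unadjusted p under 0.05, against 23.5% of all genes tested. DESeq2 called 4, against 932 of 13699 genes tested, and limma 0. Lcat, the enzyme activated by APOA1, had a log2 fold change of -0.19 (edgeR adjusted p = 0.571). Of the other apolipoproteins 5 were tested, with a median of -0.04, 2 at an unadjusted p under 0.05 and 0 called by DESeq2 or limma. Clu had a log2 fold change of -0.13 (edgeR adjusted p = 0.686) and Apof, which inhibits lipid transfer, one of 0.24 (adjusted p = 0.475 by edgeR).

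**Figure D5:**
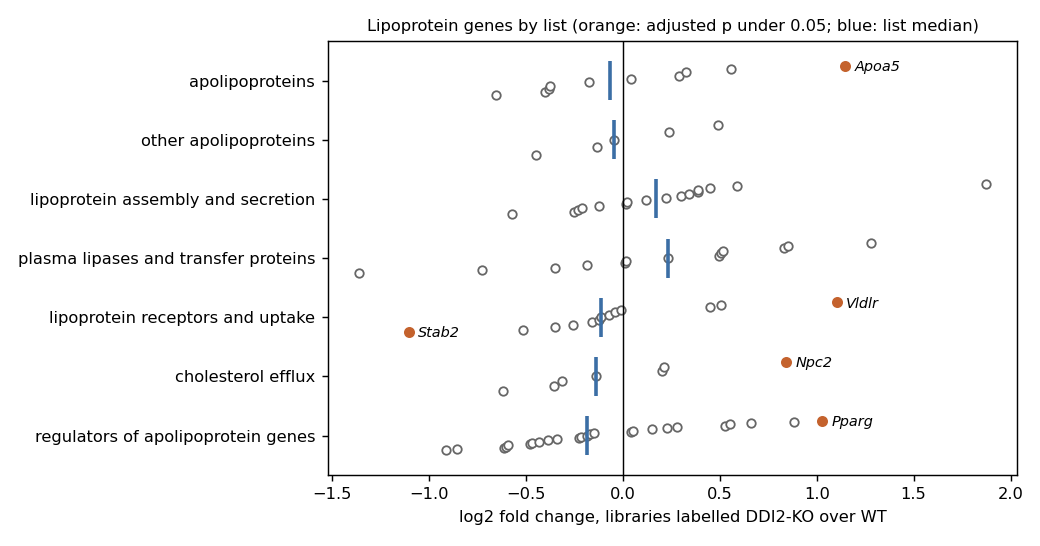
Points give the log2 fold change, DDI2-KO over WT, of each tested gene in the list of 10 apolipoproteins and in 6 lists of genes that act with them, and blue bars the list medians. Filled points have an adjusted p under 0.05 by edgeR, namely Apoa5, Vldlr, Stab2, Npc2 and Pparg, and the medians lie between -0.19 and 0.23.

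Markers were used to check the labelled tissue. All 12 hepatocyte markers were tested, with a median of -0.04, and their sum was 185435 and 208954 CPM in WT and 175386 and 178025 CPM in DDI2-KO, most of it Alb (log2 fold change -0.20, adjusted p = 0.466 by edgeR). Of 9 markers of intestinal epithelium, the other main source of several apolipoproteins, Alpi, Cdx1, Cdx2 and Sis had 0 reads in each library, which allows up to 0.0880 to 0.133 CPM at 3 counts. Fabp2 made up most of the intestinal sum of 53.9 and 45.2 CPM in WT and 62.4 and 87.9 CPM in DDI2-KO (log2 fold change 0.74, adjusted p = 0.0869 by edgeR). By edgeR 0 of the 12 hepatocyte and 0 of the 3 tested intestinal markers were called. At an unadjusted p under 0.05 in edgeR were 2 and 2, against 23.5% of all genes tested. DESeq2 called 1 and 1, against 932 of 13699 genes tested, and limma 0.

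Other cell types of the liver were also measured. Of 12 markers of Kupffer cells and macrophages, which also make APOE, edgeR called 0, and the median was 0.12. In edgeR 4 of the 12 had an unadjusted p under 0.05, against 23.5% of all genes tested. DESeq2 called 1, against 932 of 13699 genes tested. The groups did not overlap for 9 of the 12, 4 higher and 5 lower in DDI2-KO, against 55.7% of all genes tested. Those at an unadjusted p under 0.05, named after their values were seen, were Adgre1 with a log2 fold change of 0.58 and C1qa, Cd68 and C1qb with -0.72, -0.62 and -0.51. Cd5l, the most abundant of the macrophage markers, was at 219 and 206 CPM in WT and at 299.6 and 246 CPM in DDI2-KO. All 8 stellate cell markers were negative, with a median of -0.35, 2 at an unadjusted p under 0.05 and 0 called by edgeR or DESeq2, and Dcn, the most abundant, had a log2 fold change of -0.06 (edgeR adjusted p = 0.867). Of 5 bile duct markers tested, 4 were positive, with a median of 0.32, 1 at an unadjusted p under 0.05 and 0 called by edgeR or DESeq2, and Spp1, the most abundant, had a log2 fold change of 0.37 (edgeR adjusted p = 0.199). The count of Spp1 is uncertain, with 309 exonic bases shared on the same strand with Gm42793.

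Of 8 blood and lymphocyte markers edgeR called 1, limma 1 and DESeq2 3. Of 13699 genes tested edgeR called 346, limma-voom 305, limma-trend 318 and DESeq2 932. In edgeR 5 of the 8 had an unadjusted p under 0.05, against 23.5% of all genes tested. All 8 had negative log2 fold changes, with a median of -0.86, and in 7 the groups did not overlap, against 55.7% of all genes tested. Their sum was 133 and 232 CPM in WT and 94.8 and 85.7 CPM in DDI2-KO. Hbb-bs, the most abundant, had a log2 fold change of -1.14 (edgeR adjusted p = 0.103), and 65.8% of its 50-base stretches occur in other genes, mainly Hbb-bt. Hba-a1 was at 25.6 and 47.6 CPM in WT and at 10.3 and 8.83 CPM in DDI2-KO (log2 fold change -1.94, adjusted p = 0.0338 by edgeR), and was the 1 gene of the marker lists called by edgeR. Its adjusted p was 0.196 without DDI2-KO-labelled library 1 and 0.213 without library 2, both by edgeR, and its count is uncertain because 67.5% of its 50-base stretches occur in other genes, mainly Hba-a2. The part of blood in the differences of Apoa5, Vldlr, Stab2, Npc2 and Pparg was not tested.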

How the data were processed

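The authors deposited raw read counts for each Ensembl gene, 1 file per library. The submitters' processing notes name cutadapt 1.8, STAR 2.5.2b, HTSeq 0.6.1 and GRCm38, while the annotation release and strand setting are not given in the sources used here. GENCODE for GRCm38, used for symbols and coordinates, holds 48349 of the 48709 identifiers. HTSeq's summary lines stayed out of totals; reads on no gene equalled 2.53% to 5.11% of the reads on genes. In R 4.3.3, edgeR 4.0.16 (TMM, filterByExpr, robust glmQLFit, glmQLFTest, two-sided) compared 2 with 2 libraries, with Benjamini-Hochberg adjustment over all 13699 genes kept. Standard errors are the log2 fold change divided by the root of F. Alternatives used DESeq2 1.42.0, limma 3.58.1 (voom and trend), other scaling factors and filters, and each library left out, the lone library then being assumed to vary like the other group. The method was tested on simulated data. Named genes were the 10 members, Ddi2, called genes and the 2 most abundant others of each pathway list, called genes and the most abundant gene of each marker list, and the 3 nearest profiles; cluster neighbours were chosen by position. The result of 1 gene named by this rule is not reported here. Members and lists were chosen with earlier results of these data known. Replicates differed beyond sampling noise, with a chi-square over its degrees of freedom of 64.7 (WT) and 34.7 (DDI2-KO). Wilson intervals and floors cover counting error only.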

Additional observations from a re-analysis of the deposited data

Results flagged for a closer look

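Reads that the counting program set aside as ambiguous between genes are outside the gene counts and were more frequent in DDI2-KO. As a percentage of the reads on genes they came to 2.496% and 2.54% in WT and to 3.49% and 3.66% in the DDI2-KO-labelled libraries, with means of 2.52% ± 0.0287 (SD, n = 2) and 3.57% ± 0.120 (SD, n = 2). Both DDI2-KO-labelled values were above both WT values. Which genes these reads belong to, Apoc2 included, was not tested.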

How the results depend on the processing

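Apoa5 was called in 11 of 11 other settings that kept all libraries and used no replicate block, with a log2 fold change of 1.10 to 1.20. In these settings the other members kept their direction, except Apoa4 at -0.0072 with upper-quartile factors. Leaving out each library in turn gave Apoa4 a range of -0.53 to 1.01 (-0.10 without DDI2-KO-labelled library 1), the summed share a difference of -0.509 to 0.103 percentage points, and the members' median a range of -0.21 to 0.078. Called members numbered 2 with DESeq2, 0 to 1 with each library left out and 1 in the other settings. Called genes numbered 932 with DESeq2, 1544 with no filter on low counts, 152 with no robust estimation, 1281 at an adjusted p under 0.1, 806 with GC and length offsets and 153 to 631 with each library left out. For the pathway genes these counts were 12, 13, 1, 10, 8 and 1 to 9. The offsets and the median without Apoc2 were chosen after seeing the data. With the replicate block 1108 genes, 1 member and 11 pathway genes were called and the members' median was 0.029; nothing in the labels pairs the replicate numbers, and same-numbered libraries had deviations correlated at 0.0588 across genes. For the members, called pathway and marker genes and the genes nearest to Apoa5, 260 values from other settings kept direction and side of the threshold, 23 were no longer called, 1 became called and 3 changed sign, all of Apoa4. The cause was not tested. The spread between libraries was wider than counting error, so the number of libraries limits precision.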
